A study of Mus musculus with 21 samples.

Results

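The phagocyte NADPH oxidase complex is described here through 7 genes, Cybb, Cyba, Ncf1, Ncf4, Rac2, Rac1 and Hvcn1, which were chosen by name out of the 57180 genes of the deposited table. The complex is the enzyme of the respiratory burst. Its membrane part, flavocytochrome b558, is a pair of Cybb (gp91phox, also called NOX2, the subunit that carries electrons from NADPH to oxygen) and Cyba (p22phox, its partner). On activation cytosolic subunits, among them p47phox (Ncf1) and p40phox (Ncf4), move to the membrane with a Rac GTPase, and the assembled enzyme makes superoxide, while the proton channel Hvcn1 carries protons out to balance the charge. In brain the enzyme is best known from microglia and infiltrating phagocytes.

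RNA sequencing covered 21 libraries, each of brain cells collected by flow sorting from mice whose microglia were replaced in the neonatal period or left in place. MLC libraries came from transplanted monocytes, labelled monocyte-derived microglia, and MG libraries from transplanted microglia; both carried the genotype Osb-GFP. NoTx libraries came from microglia of mice without a transplant, with the genotype CX3CR1-CreER+/-; CSF1R fl/fl, so that genotype and transplant cannot be told apart in any comparison with NoTx. The seizure groups, taken 5 days after kainic acid, held 6 MLC, 4 MG and 3 NoTx libraries, and the saline groups held 3 MLC, 3 MG and 2 NoTx libraries. Batch 1 of the labels is the 13 seizure libraries and batch 2 the 8 saline libraries, and these 2 factors cannot be told apart. MLC seizure replicates 3 and 6 bear names that repeat the codes of replicates 2 and 4 followed by 11b, and the labels do not state if animals are shared.

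The seizure libraries held 6571262 to 73841998 counts over 13074 to 17591 detected genes, and the saline libraries 36528863 to 50316223 counts over 17893 to 21988 genes. All 7 members passed the filter on low counts, with at least 119 counts in every library, and were tested among 18867 genes. Levels are CPM (library-scaled counts, with TMM factors), and levels of different genes are compared as CPM per kilobase of exon. A gene is called when its p-value from edgeR's quasi-likelihood test, adjusted by the Benjamini-Hochberg method over all tested genes, was below 0.05, and fold changes are given on the log2 scale with their standard error (SE). In these bulk libraries, fewer cells of a type and less RNA per cell cannot be told apart. The titles number the libraries of a group as biological replicates without naming animals, so the p-values measure the spread between these libraries, and part of it may be technical.

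Of 10 microglia markers, 9 were in the table and had reads in every library. Their summed level was 18530 to 25680 CPM in MLC seizure libraries, against 48400 to 77710 CPM in MG seizure libraries and 56780 to 78810 CPM in NoTx seizure libraries. In saline libraries the sum was 14970 to 34050 CPM in MLC, against 61890 to 77570 CPM in MG and 56000 to 62880 CPM in NoTx. Sall1, a transcription factor that defines microglia, was at 0.3506 to 10.02 CPM in the 9 MLC libraries, and its lowest level in any MG library was 193.7 CPM.

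Cybb was the member that set the groups apart. In MLC seizure libraries it stood at 2895, 1993, 2890, 2745, 4961 and 3000 CPM, against 34.67, 21.06, 24.51 and 12.17 CPM in MG seizure libraries and 42.44, 28.3 and 36.69 CPM in NoTx seizure libraries. In MLC saline libraries it stood at 2373, 2093 and 1923 CPM, against 34.91, 26.73 and 13.38 CPM in MG saline libraries and 92 and 352.2 CPM in NoTx saline libraries. Every MLC library lay above every MG and every NoTx library, and the 2 NoTx saline libraries lay between the MLC libraries and all others.

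The promoters of Cybb and Cyba, the pair that forms the membrane part, are shown because their transcripts behaved so differently across the groups. RefSeq windows from 250 bases before to 50 bases after the start site on GRCm38.p6 were matched by symbol for 3 of the 7 members, Cybb, Cyba and Ncf1. Cybb lies on chrX:9469275-9469574 and Cyba on chr8:122432891-122433190, both on the minus strand, and the sequences read 5′ to 3′ along the gene. Capitals mark matches, on either strand, to the core of sites for the myeloid factor PU.1 (GAGGAA), the core of the interferon response element (GAAA, any 2 bases, GAAA), the CCAAT box (CCAAT), the GC box (GGGCGG) and the TATA box (TATAAA).
Cybb: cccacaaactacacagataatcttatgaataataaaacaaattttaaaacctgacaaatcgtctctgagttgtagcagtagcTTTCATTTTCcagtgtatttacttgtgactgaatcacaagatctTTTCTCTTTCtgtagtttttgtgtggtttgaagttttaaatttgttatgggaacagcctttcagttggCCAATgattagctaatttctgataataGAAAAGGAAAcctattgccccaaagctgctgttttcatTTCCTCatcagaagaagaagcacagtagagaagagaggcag
Cyba: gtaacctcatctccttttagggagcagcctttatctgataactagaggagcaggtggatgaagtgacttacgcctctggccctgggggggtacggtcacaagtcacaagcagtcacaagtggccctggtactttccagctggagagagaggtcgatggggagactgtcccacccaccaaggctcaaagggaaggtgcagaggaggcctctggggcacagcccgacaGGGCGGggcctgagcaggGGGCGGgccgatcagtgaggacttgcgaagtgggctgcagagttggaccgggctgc
The Cybb window held the interferon element core at 3 places that start at -168, -124 and -29 from the start site. At least 1 such match was found in 3.4% of 32851 promoters of this length. The Cybb window also held 1 CCAAT box at -56, found in 37.4% of promoters. It held 1 GAGGAA match just after the start site, on the opposite strand, found in 28.3%. None of these matches overlapped. The Cyba window held the GC box at 2 places, at -24 and -6, and none of the other motifs. At least 1 GC box was found in 35.7% of promoters. The Ncf1 window held 1 interferon element core, at -82, and 1 GC box, at -42. No difference in Ncf1 between groups was called. None of the 3 windows held TATAAA, which 13.6% of promoters have. A match describes these letters and is not shown to be a site in use.

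Cybb averaged 3081 ± 990.7 CPM in MLC seizure libraries (SD, n = 6) and 23.1 ± 9.302 CPM in MG seizure libraries (SD, n = 4). It was higher in MLC than in MG by 7.06 on the log2 scale after seizure (SE 0.48, adjusted p = 2.5e-09 by edgeR) and by 6.41 in saline mice (SE 0.55, adjusted p = 1.7e-07 by edgeR). Cybb was the 1 member of 7 called in each of these comparisons, beside 5.88% of all tested genes after seizure and 1.58% in saline mice. The difference between the seizure and the saline contrast was 0.65 (SE 0.55, adjusted p = 1 by edgeR), in a comparison where 0% of all genes were called (1036 had an unadjusted p below 0.05, and the alternatives run called 0 to 143).

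Against NoTx, Cybb was higher in MLC by 6.43 after seizure (SE 0.53, adjusted p = 3.8e-08 by edgeR) and by 3.26 in saline mice (SE 0.56, adjusted p = 0.0019 by edgeR). Of the 7 members, 2 were called after seizure, Cybb higher and Rac2 lower, beside 6.16% of all genes, and Cybb alone in saline mice, beside 1.26%. The saline call rests on the 2 NoTx libraries. Without NoTx saline replicate 1 the difference was 2.60 (adjusted p = 0.071 by edgeR), and without replicate 2 it was 4.53 (adjusted p = 0.0015). The MLC against NoTx contrast was larger after seizure than in saline by 3.17 (SE 0.62), but this missed the limit (adjusted p = 0.084 by edgeR, where 0.0265% of all genes were called). That comparison was added after the values were seen.

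MG libraries had less Cybb than NoTx libraries in saline mice, by -3.15 on the log2 scale (SE 0.49, adjusted p = 0.011 by edgeR). Cybb was the 1 member called there, beside 0.053% of all genes. After seizure the MG against NoTx difference was -0.63 and not called (adjusted p = 0.65 by edgeR), and 0 of 7 members were called, beside 0.0742% of all genes. No member had an unadjusted p below 0.05 there, and DESeq2 and limma-voom also called 0 members. The difference between these contrasts, also added after the values were seen, was 2.52 (SE 0.63, adjusted p = 0.69 by edgeR), where 0.0106% of all genes were called. Without NoTx saline replicate 2, the library at 352.2 CPM, the saline difference was -1.88 (adjusted p = 1 by edgeR), and the adjusted p was 0.1 without MG saline replicate 2 and 0.15 without MG saline replicate 3.

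Blood monocyte markers were highest in the same NoTx saline libraries. The summed level of 8 such genes was 234.2 CPM in replicate 1 (Cybb 92 CPM) and 1211 CPM in replicate 2 (Cybb 352.2 CPM). In all other libraries of the study it was at most 141 CPM. The sum of 8 border macrophage markers was 160.8 and 230.7 CPM in these libraries, of which 86.54 to 172.3 CPM was F13a1, a gene on both lists. The sum of 11 neutrophil markers was 396.3 and 1718 CPM in NoTx saline libraries, against 444.5 to 779.8 CPM in MG saline libraries. It reached 1423 CPM in NoTx seizure replicate 3, where Cybb was at 36.69 CPM. In MG saline libraries nearly all of this sum was 1 gene, Csf3r, at 441.3 to 777.3 CPM. Csf3r was at 62.37 and 326.2 CPM in NoTx saline libraries. Ngp, another gene of the list, was at 37.15 and 887.7 CPM there, against 1.166 to 3.89 CPM in MG saline libraries. Its highest level in NoTx seizure libraries was 317.3 CPM. All 8 blood monocyte markers had reads in both NoTx saline libraries, and in MG saline libraries their sum was 8.162 to 20.89 CPM. The part of cells with either set of markers in the Cybb level of NoTx saline libraries was not tested.

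In MLC libraries the blood monocyte sum was low, at 1.772 to 16.51 CPM after seizure and 6.959 to 23.4 CPM in saline mice. The monocyte marker Ly6c2 was at 0 to 1.553 CPM and the neutrophil marker S100a8 at 0.3014 to 1.895 CPM in these 9 libraries. The neutrophil sum was 22.74 to 141.1 CPM in MLC seizure libraries and 162.9 to 469.8 CPM in MLC saline libraries. Csf3r, of the same list, was at 13.13 to 137.5 CPM and 160.2 to 467.2 CPM there. The border macrophage sum was 1025 to 1626 CPM in MLC seizure libraries, against 3.082 to 50.9 CPM in MG and 6.092 to 45.12 CPM in NoTx seizure libraries. In saline libraries it was 1253 to 1593 CPM in MLC, against 10.91 to 31.65 CPM in MG. Most of that sum was Mrc1, the mannose receptor, at 636.6 to 1299 CPM in MLC libraries, with Pf4, a chemokine, at 110.8 to 283.3 CPM and Ccl8, another chemokine, at 25.94 to 437 CPM. The other 5 genes of the list were low in MLC: Lyve1 had 0 counts in all MLC seizure libraries and at most 0.02172 CPM in saline ones, and Folr2, Cbr2, Cd163 and F13a1 averaged 2.115, 4.349, 6 and 5.172 CPM after seizure. The part of such cells in the MLC level of Cybb was not tested.

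**Figure D1:**
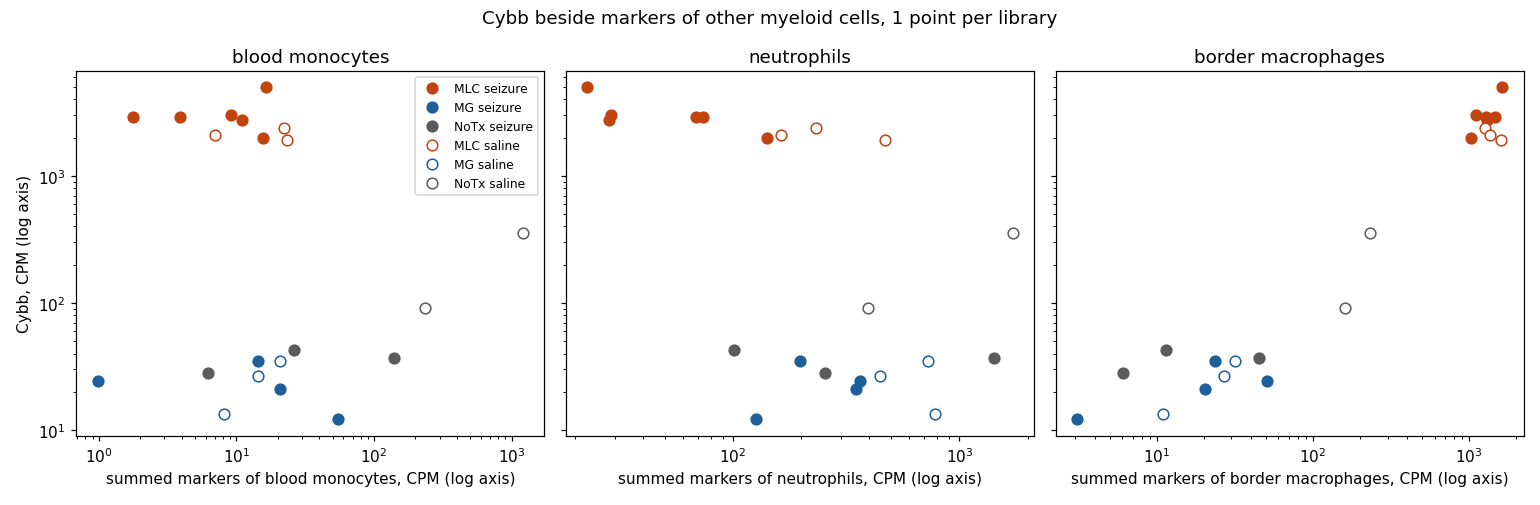
Cybb level (CPM, log axis) of each of the 21 libraries against the summed level (CPM, log axis) of marker genes of other cells, 1 point per library, coloured by group. The MLC libraries sit at 1923 CPM of Cybb or more, and the 2 NoTx saline libraries, at 92 and 352.2 CPM, carry the highest blood monocyte sums, 234.2 and 1211 CPM.

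Cybb lies on the X chromosome, and the libraries differed in sex-linked genes. Xist, the transcript of the inactive X, was at 152.1 CPM or more in all MG libraries and in NoTx seizure replicates 1 and 3, and at most 7.483 CPM in all others. Between MLC and MG, the kind of transplant and Xist status therefore cannot be told apart. The MG libraries were not uniform in sex-linked genes: 6 of 7 also held 64.6 to 222.2 CPM of Y-linked genes, and the other 0.7774 CPM. NoTx seizure replicate 2, with 2.279 CPM of Xist, stood at 28.3 CPM of Cybb. With the other NoTx seizure libraries left out, Cybb was higher in MLC than in this library by 6.75 (adjusted p = 0.00027 by edgeR). With 1 NoTx seizure library, this p assumes that it varies like the libraries of the other groups. Seizure and saline differed in Cybb within NoTx by -2.63 (SE 0.49, adjusted p = 0.026 by edgeR), and Cybb was the 1 member called, beside 0.106% of all genes. This call ended without NoTx saline replicate 2 (-1.37, adjusted p = 1), and without any 1 of NoTx seizure replicates 1, 2 and 3 (adjusted p = 0.11, 0.19 and 0.11 by edgeR). It also ended with a correction for GC content (-1.84, adjusted p = 0.38 by edgeR).

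Cyba did not follow its partner. It stood at 1281, 1213, 1763, 1602, 666.4 and 1345 CPM in MLC seizure libraries, against 1205, 1343, 2095 and 1676 CPM in MG and 1566, 1847 and 999.4 CPM in NoTx seizure libraries. In saline libraries it was at 1777, 1507 and 1253 CPM in MLC, against 1052, 1682 and 1208 CPM in MG and 1120 and 1889 CPM in NoTx. All groups overlapped. The largest of its 9 differences between groups was -0.27 on the log2 scale (MLC against MG after seizure, SE 0.26, adjusted p = 0.59 by edgeR).

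**Figure D2:**
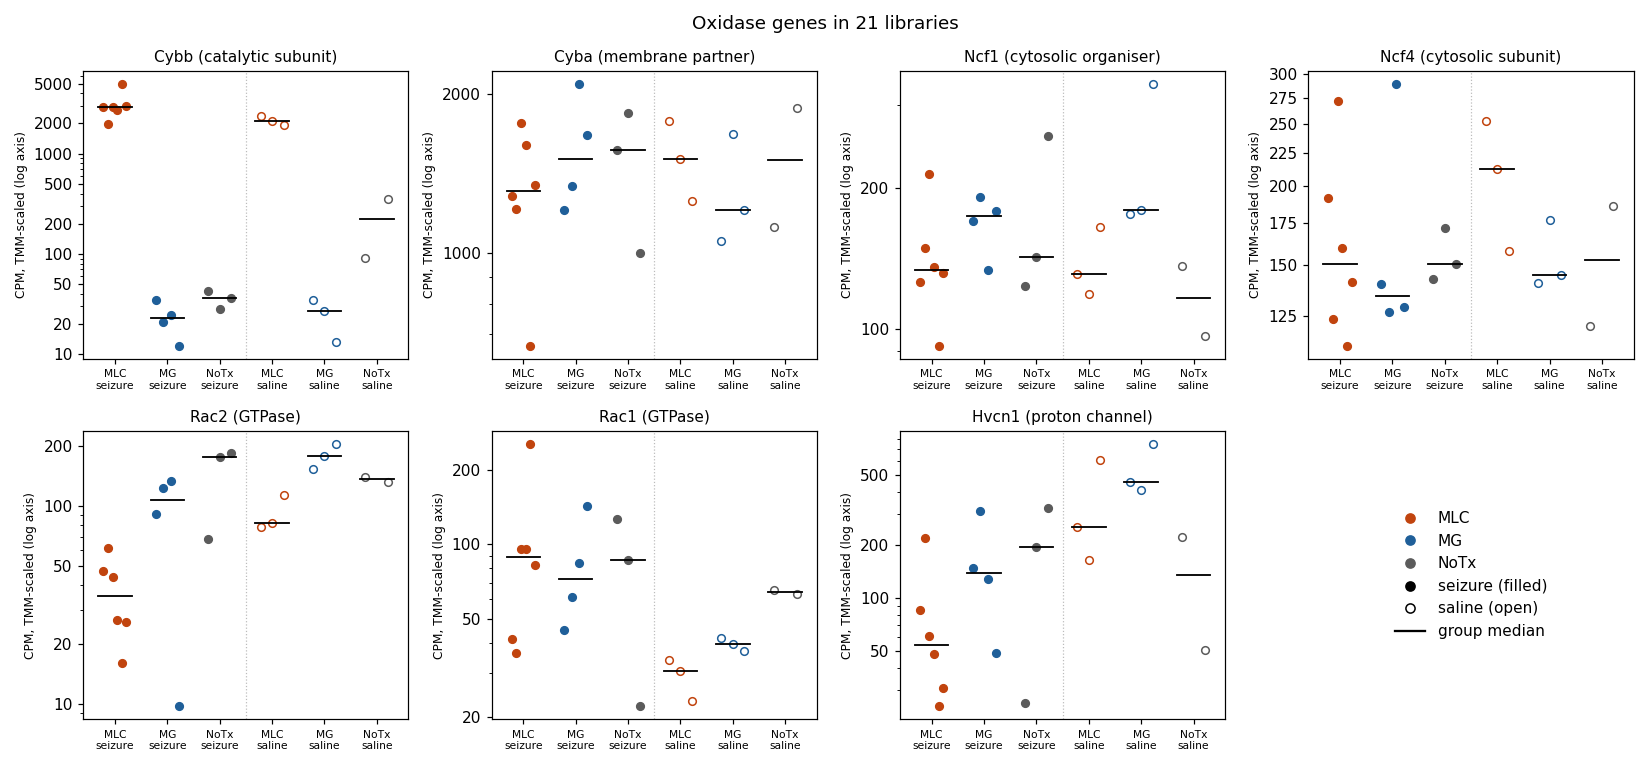
Level (CPM, log axis) of each member in each library, by group, 1 point per library with a bar at the group median; MLC, MG and NoTx seizure groups come before the saline groups. Cybb separates the MLC groups (1923 CPM or more) from the rest (352.2 CPM or less), and Cyba lies between 666.4 and 2095 CPM in all 21 libraries.

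Per kilobase of exon, Cyba was the most abundant member in the mean of every group, at 1263 ± 364.4 CPM per kilobase in MLC seizure libraries (SD, n = 6) and 1521 ± 381.7 in MG seizure libraries (SD, n = 4). Cybb came next in both MLC groups, at 530.4 ± 170.6 CPM per kilobase after seizure (SD, n = 6) and 366.6 ± 39.11 in saline mice (SD, n = 3). In MG libraries Cybb was the least abundant member, at 3.978 ± 1.602 CPM per kilobase after seizure (SD, n = 4) and 4.306 ± 1.871 in saline mice (SD, n = 3). In the NoTx seizure mean Cybb was also the least abundant, at 6.166 ± 1.224 CPM per kilobase (SD, n = 3), but not in the NoTx saline mean. Single NoTx seizure libraries differed. Hvcn1 was lower in replicate 1 (7.1 against 7.307 CPM per kilobase for Cybb), and Rac1 in replicate 3 (4.928 against 6.318). The ratio of Cybb to Cyba per kilobase within a library, which does not depend on the scaling between libraries, was 0.2932 to 1.332 in MLC seizure libraries, against 0.001298 to 0.005149 in MG and 0.002742 to 0.006568 in NoTx seizure libraries. In saline libraries it was 0.2389 to 0.2745 in MLC, against 0.001982 to 0.005935 in MG and 0.0147 and 0.03335 in NoTx. MLC seizure replicate 5 was the 1 library in which the ratio exceeded 1, and it had the highest Cybb and the lowest Cyba of its group.

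No difference between groups was called for the cytosolic subunits among the members, Ncf1 and Ncf4. Ncf1 (p47phox, the organizer subunit that is phosphorylated on activation) had 126.2, 149, 214.5, 136, 92.29 and 132.1 CPM in MLC seizure libraries, against 170.5, 191.7, 133.7 and 178.4 CPM in MG and 123.9, 142.3 and 258.2 CPM in NoTx seizure libraries. In saline libraries it had 131, 119.2 and 165.4 CPM in MLC, against 176.3, 179.9 and 333.6 CPM in MG and 136.5 and 96.63 CPM in NoTx. MG saline libraries lay above all MLC and NoTx saline libraries. The MLC against MG difference in saline mice was -0.73 on the log2 scale (SE 0.35, adjusted p = 0.61 by edgeR) and the MG against NoTx difference 0.98 (SE 0.40, adjusted p = 1 by edgeR), and neither was called.

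Ncf4 (p40phox, which binds the phagosome lipid phosphatidylinositol 3-phosphate) ranged from 112.1 to 272.4 CPM in MLC seizure libraries, against 126.6 to 289.4 CPM in MG and 142.8 to 171.7 CPM in NoTx seizure libraries. In saline libraries it ranged from 158.1 to 253 CPM in MLC, against 140.9 to 176.9 CPM in MG, with 120.3 and 185.9 CPM in NoTx. All groups overlapped. The largest of its 9 differences between groups was 0.44 on the log2 scale (MLC against NoTx in saline mice, SE 0.41, adjusted p = 1 by edgeR). The ratio of Ncf1 to Ncf4 per kilobase had medians of 0.4616 in MLC, 0.7174 in MG and 0.4786 in NoTx seizure libraries, and of 0.3095 in MLC and 0.6898 in MG saline libraries; the ranges of all groups overlapped.

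Cybc1, a chaperone needed for the membrane pair to mature, had MLC against MG differences of 0.24 after seizure and 0.15 in saline mice, neither of them called.

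Rac2, the Rac GTPase of blood cells, was the other member called. It had 47.12, 61.28, 43.91, 26.48, 16.1 and 25.87 CPM in MLC seizure libraries, against 91.45, 124, 133.6 and 9.785 CPM in MG and 68.15, 176.3 and 186.1 CPM in NoTx seizure libraries. In saline libraries it had 78.07, 81.64 and 113.3 CPM in MLC, against 153.8, 178.6 and 205.4 CPM in MG and 140.6 and 132.1 CPM in NoTx. MLC lay below NoTx without overlap in both treatments and below MG without overlap in saline mice. After seizure 1 MG library, replicate 4 at 9.785 CPM, lay below all MLC libraries.

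Rac2 was lower in MLC than in NoTx after seizure, by -1.96 on the log2 scale (SE 0.50, adjusted p = 0.019 by edgeR). The call ended without the 11b libraries (-1.91, adjusted p = 0.07), without NoTx seizure replicate 2 (-1.79, adjusted p = 0.085) and without replicate 3 (-1.73, adjusted p = 0.092 by edgeR). Against the 1 NoTx seizure library without Xist, under the same assumption about its spread, the difference was -2.28 (adjusted p = 0.09). The MLC against MG difference was -1.29 after seizure (SE 0.47, adjusted p = 0.1 by edgeR), and without MG replicate 4 it was -1.66 and called (adjusted p = 0.0062 by edgeR). In saline mice it was -0.98 (SE 0.60, adjusted p = 0.87 by edgeR).

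Rac1, the widely expressed Rac GTPase, had 41.28, 36.23, 95.91, 95.93, 255 and 82.31 CPM in MLC seizure libraries, against 34, 30.77 and 23.11 CPM in MLC saline libraries. It had 45.18, 61.42, 84.03 and 143.6 CPM in MG seizure libraries, against 41.76, 39.38 and 37.01 CPM in MG saline libraries. NoTx had 126.8, 86.2 and 22.16 CPM after seizure, against 65.45 and 63.14 CPM in saline mice. Seizure lay above saline without overlap in MLC and in MG and overlapped in NoTx. The seizure against saline differences were 1.79 in MLC (SE 0.58, unadjusted p = 0.0051, adjusted p = 0.31 by edgeR), 1.09 in MG (SE 0.59, adjusted p = 0.46) and 0.29 in NoTx (SE 0.68, adjusted p = 1), and none was called.

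The level of Rac1 is uncertain. In GENCODE M21 on GRCm38 its exons share 2309 bases with Daglb on the opposite strand, and no source used here says that the counting used strand. Daglb held 343505.6 counts over all libraries, against 38663.7 for Rac1. Daglb ranged from 85.92 to 374.7 CPM in MLC seizure libraries, against 258.3 to 529 CPM in MLC saline libraries. Ncf1 shares 408 exon bases with Gtf2ird2 and Hvcn1 shares 1574 with Tctn1, both on the opposite strand, and those neighbours held 14648.7 and 13171.1 counts, against 100005.7 for Ncf1 and 160744.5 for Hvcn1. The deposited count was not a whole number for Rac1 and Hvcn1 in all 21 libraries and for Ncf1 in 20, and how reads were divided between genes is not stated.

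Per kilobase, the ratio of Rac2 to Rac1 had medians of 0.5593 in MLC seizure libraries (range 0.09152 to 2.451), against 3.844 in MLC saline libraries (3.327 to 7.101). It was 2.614 in MG seizure libraries (0.09875 to 2.932), against 6.572 in MG saline libraries (5.337 to 8.042). In NoTx it was 2.964 after seizure (0.7785 to 12.17), against 3.033 and 3.113 in saline mice. Seizure lay below saline without overlap in MLC and in MG. The Daglb overlap above bears on the Rac1 term of this ratio. The GC trend of the libraries, described below, went with Rac2 (Pearson r = 0.767) and against Rac1 (r = -0.814) within groups. A ratio within a library does not remove that trend, and its part here was not tested.

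**Figure D3:**
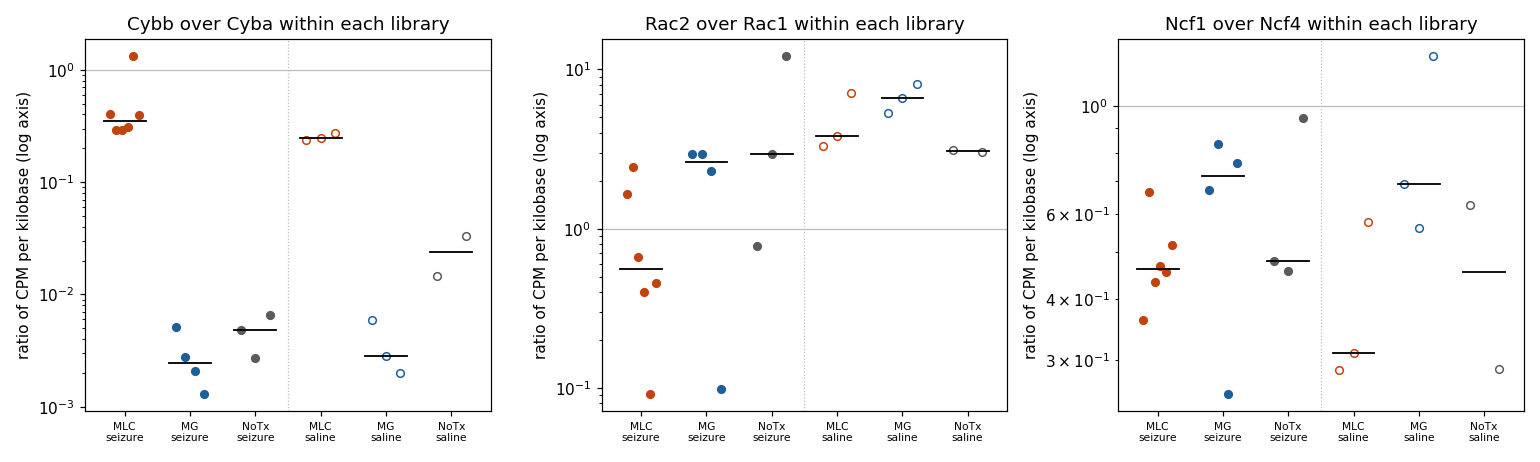
Ratios within each library of Cybb to Cyba, Rac2 to Rac1 and Ncf1 to Ncf4, each per kilobase of exon (log axes), by group, 1 point per library with a bar at the group median. Cybb to Cyba is 0.2389 or more in all MLC libraries and 0.03335 or less in all others.

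Hvcn1, the proton channel, had 85.62, 219.7, 60.89, 48.14, 24.49 and 30.82 CPM in MLC seizure libraries, against 252.1, 164.6 and 602.9 CPM in MLC saline libraries. It had 148.1, 313.2, 127.9 and 49.08 CPM in MG seizure libraries, against 454.2, 410.6 and 744.5 CPM in MG saline libraries. NoTx had 25.3, 194 and 322.7 CPM after seizure, against 220.6 and 51.13 CPM in saline mice. MG seizure lay below MG saline without overlap, and seizure and saline overlapped in MLC and in NoTx. In saline mice MG lay above NoTx without overlap. That difference was 1.98 (SE 0.97, unadjusted p = 0.054 by edgeR) and was not called. The seizure against saline differences were -2.12 in MLC (SE 0.67, unadjusted p = 0.0046, adjusted p = 0.31 by edgeR), -1.75 in MG (SE 0.76, adjusted p = 0.4) and 0.41 in NoTx (SE 0.91, adjusted p = 1), and none was called.

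Between the transplant groups, the libraries did not overlap for 1 member in MLC against MG after seizure (Cybb), beside 5.41% of all genes, and for 4 in saline mice, beside 22.8%. MLC and NoTx did not overlap for 2 members after seizure (Cybb and Rac2), beside 9.22% of all genes, and for 3 in saline mice, beside 33.3%. MG and NoTx did not overlap for 0 members after seizure, beside 3.86%, and for 5 in saline mice, beside 36.8%.

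Between seizure and saline, 0 of 7 members were called in MLC, beside 0% of all genes (2236 had an unadjusted p below 0.05), and 0 of 7 in MG, beside 0.0371%. At an unadjusted p below 0.05, edgeR counted 3 members in MLC (Hvcn1, Rac1 and Rac2) and 1 in MG (Hvcn1), and DESeq2 and limma-voom also called 0 in both. The groups did not overlap for 2 members in MLC, beside 6.28% of all genes, and for 3 in MG, beside 16%, and for 1 in NoTx (Cybb), beside 21.2%. Cybb itself differed by 0.53 in MLC (adjusted p = 0.66 by edgeR) and by -0.12 in MG (adjusted p = 0.96 by edgeR). The median log2 difference of the 7 members was -0.20 in MLC and -0.12 in MG, beside -0.06 and -0.08 over all tested genes.

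**Figure D4:**
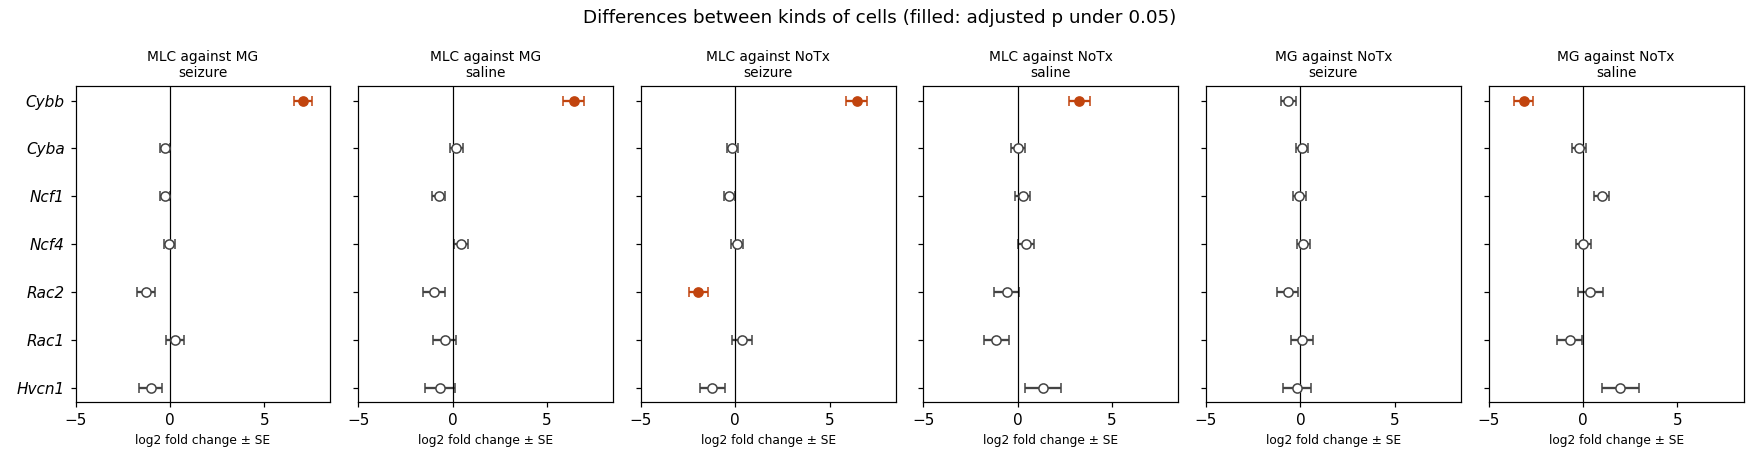
Log2 fold change of each member with its SE in the 6 comparisons between MLC, MG and NoTx, after seizure and in saline mice. Points are filled where the adjusted p from edgeR was below 0.05. Cybb is filled in all of them except MG against NoTx after seizure. Rac2 is filled in MLC against NoTx after seizure alone, and the other members in none.

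Several members moved with a property of the libraries. The measure is the log2 shift in a library between genes of 45% and 55% GC, a trend that ranged from -0.8105 (MLC seizure replicate 5) to 0.6496 (MG saline replicate 3). In deviations from the group means over the 21 libraries, Hvcn1 (54.65% GC) had a Pearson r of 0.93 and a Spearman rho of 0.938 with this shift, and Rac1 (48.33% GC) an r of -0.814 and a rho of -0.727. Rac2 (52.8% GC) had an r of 0.767 and Ncf1 (53.44%) of 0.732, while Cybb (42.42%) had -0.413, Cyba (59.27%) -0.065 and Ncf4 (55.67%) 0.0279. Cyba and Ncf4 have more GC than Hvcn1 without a comparable r, so GC content alone does not order these values. The share of all tested genes with an r as large was not computed. Without the 2 libraries farthest from the median shift, r was 0.931 for Hvcn1, -0.704 for Rac1, 0.718 for Rac2 and 0.63 for Ncf1, and -0.274 for Cybb, -0.47 for Cyba and -0.204 for Ncf4, so the value for Cyba rests on those libraries. Libraries share their depth and preparation in both measures, so these are descriptions.

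With the GC trend removed in the fit, Hvcn1 differed between seizure and saline by -1.16 in MLC (adjusted p = 0.34 by edgeR) and -0.82 in MG (adjusted p = 0.42), and Rac1 by 2.48 in MLC (adjusted p = 0.28) and 1.87 in MG (adjusted p = 0.15). Rac2 remained lower in MLC than in NoTx after seizure (-1.74, adjusted p = 0.016 by edgeR). Cybb remained higher in MLC than in MG by 6.69 after seizure (adjusted p = 1.6e-09 by edgeR) and by 6.34 in saline mice (adjusted p = 8.1e-08).

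**Figure D5:**
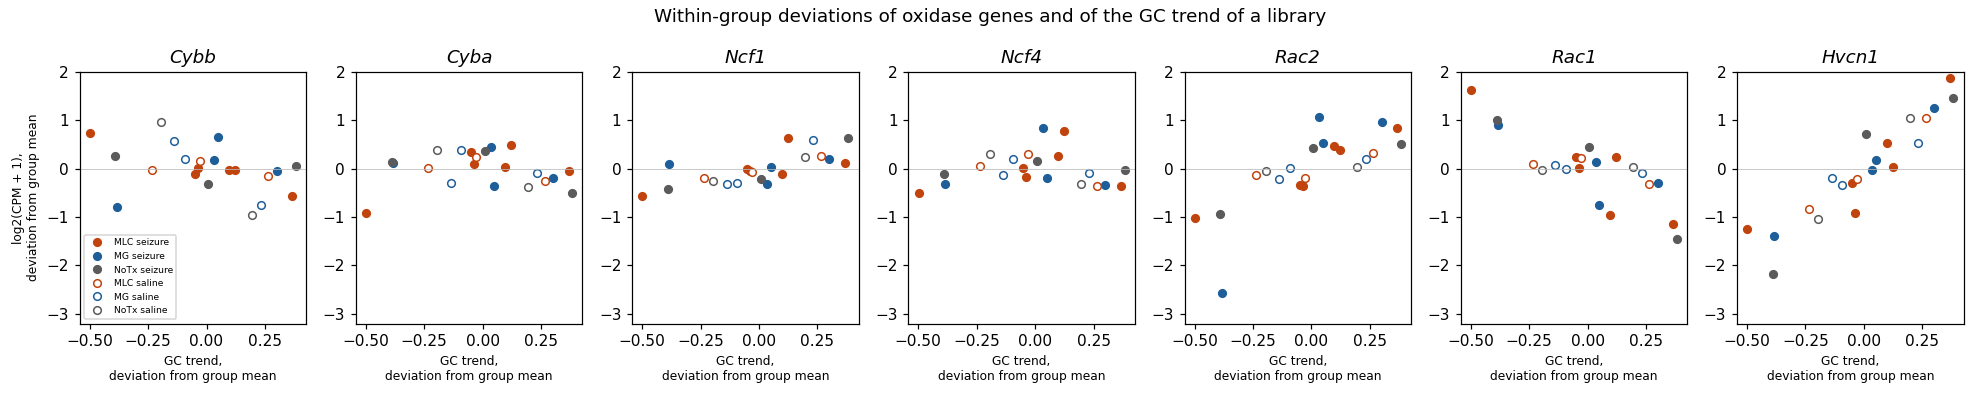
Deviation of each member's log2 CPM from its group mean against the deviation of the library's GC shift (log2), 1 point for each of the 21 libraries, coloured by group. Hvcn1 (r = 0.93) and Rac1 (r = -0.814) run in opposite directions, and r is -0.065 for Cyba and 0.0279 for Ncf4 over all libraries.

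Set side by side, the members spread unequally over the 6 group means. The span between the highest and the lowest group, in log2(CPM + 1), was 7.03 for Cybb, 3.11 for Hvcn1, 2.37 for Rac2, 1.46 for Rac1, 0.93 for Ncf1, 0.45 for Ncf4 and 0.30 for Cyba, beside a median of 1.11 over all tested genes. A larger span than that of Cybb was found in 0.1378% of tested genes, and a larger one than that of Cyba in 94.11%. The 2 members nearest in pattern were Cyba and Ncf4, with a root mean square difference of 0.15 between their centred group means, and Cybb lay 2.85 to 3.46 from the other 6.

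The genes nearest to each member in pattern were taken by the same measure over 6 group means, among 6855 genes whose log2 CPM averaged 4 or more. For Cybb they were Ms4a4a (0.29), Pf4 (0.32) and Ifi203 (0.35). For Rac2 they were Smad3, Slc16a6 and Galnt10 (0.15 to 0.17), for Hvcn1 Zgpat, Ppp1r18 and Wbp2 (0.14 to 0.16), and for Rac1 Ube2g1, Sucla2 and Tnks2 (each 0.14). For Ncf1 they were Epc1, Derl1 and Urgcp (0.11 to 0.14), for Cyba Wdr83, Ino80d and Dlst, and for Ncf4 Fubp1, Emc9 and Hspa5 (0.06 to 0.07 for these 6). The measure is not scaled by span, so any genes that change little lie near each other. With spans of 0.30 for Cyba and 0.45 for Ncf4, their small distances, also the one between them, do not show a shared pattern.

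The genes around the enzyme were taken as 3 lists: 12 other parts and relatives of the oxidase, 31 genes that lie upstream of its activation, and 29 genes that handle superoxide and peroxide. Of the relatives, 6 of 12 passed the filter. Noxa1, Nox3, Nox4, Duox1 and Duoxa2 had 0 counts in all libraries, and Duox2 had 53 counts in 2 libraries. In each of the 4 comparisons of MLC with MG or NoTx 1 of the 6 tested relatives was called lower and 0 higher; of all genes, 3.37% were called lower than in MG and 3.61% lower than in NoTx after seizure, and 0.806% and 0.811% in saline mice. That gene was Duoxa1, the maturation factor of the dual oxidase Duox1, named here after its values were seen. It had 2 counts over the 6 MLC seizure libraries and 2 over the 3 MLC saline libraries, against 0 to 8.966 CPM in MG and 4.139 to 14.39 CPM in NoTx seizure libraries, and 4.914 to 11.08 CPM in MG and 5.503 and 7.315 CPM in NoTx saline libraries. The Duoxa1 call against MG was lost in 2 of 18 alternatives after seizure and 5 of 13 in saline mice, and against NoTx in 0 of 19 and 6 of 12.

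Of the 31 upstream genes, 2 were called higher and 4 lower in MLC than in MG after seizure, beside 2.51% of all genes called higher and 3.37% lower, and with a list median of -0.44 beside 0 over all genes. Clec7a, the beta-glucan receptor dectin-1, had a median of 175.4 CPM in MLC seizure libraries (range 122.3 to 308.7), against 80.37 CPM in MG (39.25 to 110.6) and 12.47 CPM in NoTx (8.918 to 23.29). The groups did not overlap. Clec7a was higher in MLC than in MG after seizure by 1.27 (adjusted p = 0.036 by edgeR) and in saline mice by 1.87 (adjusted p = 0.029), and higher than in NoTx by 3.66 (adjusted p = 1.5e-05) and 2.15 (adjusted p = 0.04). It was also higher in MG than in NoTx after seizure, by 2.39 (adjusted p = 0.037 by edgeR).

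Itgam, the CD11b chain of complement receptor 3, had a median of 174.1 CPM in MLC seizure libraries (range 152.1 to 216.3), against 453.8 CPM in MG (430.6 to 549.4) and 552.4 CPM in NoTx (506.9 to 757.3). It was lower in MLC by -1.40 against MG (adjusted p = 0.0064 by edgeR) and by -1.76 against NoTx (adjusted p = 0.0014). Pik3r5, a regulatory subunit of the PI3-kinase downstream of G protein-coupled receptors, was lower in MLC by -1.56 against MG (adjusted p = 0.03) and by -1.92 against NoTx (adjusted p = 0.011). Plcg2, a phospholipase C of immune receptor signalling, was lower by -1.51 against MG (adjusted p = 0.033 by edgeR). The other 2 called genes, at low levels and named after their values were seen, were Prkca (protein kinase C alpha, median 0.117 CPM in MLC against 15.76 CPM in MG) and Vav3 (a Rac exchange factor, median 1.648 CPM in MLC against 0 counts in the 4 MG libraries).

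The call of Clec7a between MLC and NoTx after seizure held in all 19 alternatives run, and those of Itgam were lost in 2 of 19 against MG and 1 of 19 against NoTx. Between MLC and MG after seizure the calls were lost in 6 of 19 alternatives for Clec7a, 14 of 19 for Pik3r5 and 13 of 19 for Plcg2, and in 6 of 19 for Prkca and 5 of 18 for Vav3. Between MLC and NoTx after seizure they were lost in 5 of 19 for Pik3r5 and 13 of 19 for Prkca. The saline calls of Clec7a were lost in 6 of 13 alternatives against MG and 4 of 12 against NoTx, and its call between MG and NoTx after seizure in 9 of 16.

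In saline mice Clec7a was the 1 upstream gene of 31 called between MLC and MG, higher, and the 1 called between MLC and NoTx, higher. Itgam differed between MLC and MG in saline mice by -1.49, which missed the limit (adjusted p = 0.063 by edgeR). It was called in 5 of 13 alternatives. Between MLC and NoTx in saline mice Itgam differed by -0.45 and was not called. Against NoTx after seizure 1 upstream gene was higher (Clec7a) and 3 were lower (Itgam, Pik3r5 and Prkca). Between MG and NoTx after seizure 1 was higher (Clec7a), and 0 of 31 were called in saline mice.

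Of the 29 genes that handle superoxide and peroxide, 27 were tested, and Sod3 had 0 counts and Mpo 1 count in all. In MLC against MG after seizure 3 of 27 were called higher and 0 lower, beside 2.51% of all genes higher and 3.37% lower, with a list median of -0.01 beside 0 over all genes. Prdx1, a peroxiredoxin, had a median of 485.9 CPM in MLC (range 313.8 to 557), against 227.2 CPM in MG (179 to 312.3), a difference of 0.95 (adjusted p = 0.038 by edgeR). Nfe2l2, the transcription factor NRF2 of the antioxidant response, had a median of 588.8 CPM in MLC (439.4 to 647.9), against 301.7 CPM in MG (241.3 to 400.5), a difference of 0.87 (adjusted p = 0.019 by edgeR). Gpx3, a secreted glutathione peroxidase named after its values were seen, had 390 counts over the 6 MLC libraries, with reads in 4 of them, and 1 count over the 4 MG libraries. Nfe2l2 was also the 1 gene of the list called against NoTx after seizure, higher in MLC by 0.82 (adjusted p = 0.046 by edgeR), and 0 were called in saline mice between MLC and MG (4 at an unadjusted p below 0.05) or MLC and NoTx (1). The calls against MG were lost in 6 of 19 alternatives for Prdx1 and for Gpx3 and 5 of 19 for Nfe2l2, and that of Nfe2l2 against NoTx in 14 of 19. Between seizure and saline, 0 genes of the 3 lists were called in MLC, MG or NoTx by edgeR or by any alternative run. At an unadjusted p below 0.05 edgeR counted 6, 2 and 2 upstream genes in MLC, MG and NoTx, 3, 1 and 0 handling genes, and 0 relatives in each.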

How the data were processed

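RNA was sequenced from sorted brain cells of mice (RNeasy micro columns and the NEBNext Single Cell/Low Input kit, per the labels' protocols; no molecular identifiers are mentioned). The authors deposited 1 table of estimated counts per gene for 21 libraries. Per the submitters' processing notes, Trim Galore 0.6.7, cutadapt 3.4, STAR 2.7.10a, Subread 2.4.5 with featureCounts and DESeq2 1.36.0 were used on GRCm39. No source used here names the step behind the estimated counts: 22.3% to 35.2% of the nonzero deposited counts of a library were not whole (tolerance 0.01). 46.5% of genes were at 0 in every library.

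Counts were rounded and fitted with edgeR 4.0.16 (R 4.3.3; TMM, filterByExpr by group, robust quasi-likelihood fit of 6 group means in all 21 libraries), with Benjamini-Hochberg adjustment over 18867 genes and a limit of 0.05. SEs were taken as the size of the fold change (log2) over the square root of F. Alternatives were DESeq2 1.42.0, limma 3.58.1 (voom with quality weights), RLE scaling, no filter, the compared groups only, a replicate block, a GC trend removed (5 spline degrees of freedom; 95.36% of tested genes had a GC value), and libraries left out. Exon lengths and GC came from GENCODE M21 on GRCm38, matched by gene ID, and promoters from RefSeq on GRCm38.p6; no coordinates were moved between builds. Scripts were tested on simulated data.

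The members and lists were chosen with earlier results of these data known. Named beside the 7 members are Cybc1, up to 4 called genes of each list per comparison (largest fold changes, log2 CPM averaging 4 or more), and the 3 nearest genes by pattern of each member. The 2 comparisons of a NoTx contrast between treatments were added after the data were seen, as was leaving out the 2 NoTx seizure libraries with Xist. A further gene that the naming rule holds is not reported here.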

Additional observations from a re-analysis of the deposited data

Results flagged for a closer look

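Of 14 sets of values of a member in a group of 4 or more libraries, 4 held a library that stood apart by Dixon's test at the 95% level. The test flags about 5% of groups by chance if values are normally distributed. It was run on CPM and not on the log2 scale, so the 4 sets cannot be set against that rate. Cybb was at 4961 CPM in MLC seizure replicate 5, with the next library at 3000 CPM. Rac1 was at 255 CPM in the same library, with the next at 95.93 CPM, and that library had the lowest GC shift of the study (-0.8105). Hvcn1 was at 219.7 CPM in MLC seizure replicate 2, with the next at 85.62 CPM. Ncf4 was at 289.4 CPM in MG seizure replicate 3, with the next at 140 CPM.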

How the results depend on the processing

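Cybb stayed called and higher in MLC than in MG in all alternatives run, at 6.688 to 7.324 after seizure (19 alternatives) and 6.12 to 6.765 in saline mice (13 alternatives), and higher than in NoTx after seizure at 6.087 to 6.749 (19 alternatives). Counts of called members changed as follows. With the replicate block, MLC against NoTx after seizure gave 1 in place of 2 (Rac2 -1.095, adjusted p = 0.22 by edgeR). Seizure against saline in NoTx then gave 0 in place of 1. Deviations of same-numbered libraries correlated at -0.292 to 0.315, and no comparison of 3 or more pairs had every r above 0.1. Same-numbered seizure libraries do not all carry the same codes in their names, so these values cannot decide if libraries were paired. MLC against NoTx after seizure also gave 1 without the 11b libraries and without the 2 NoTx libraries with Xist. Seizure against saline in NoTx gave 0 with limma-voom, the compared groups only, the GC trend removed, and without the 2 NoTx libraries with Xist. MG against NoTx in saline mice gave 2 with limma-voom (Cybb and Hvcn1) and 0 with the compared groups only, in place of 1. MLC against MG after seizure gave 2 without MG seizure replicates 3 and 4 and MLC seizure replicate 5, which earlier results of these data had set apart (Rac2 -1.289, adjusted p = 0.048 by edgeR). The MLC against NoTx contrast of seizure minus saline gave 1 with DESeq2, the compared groups only and without the same 3 libraries, in place of 0. Leaving out 1 library at a time gave 1 to 1 (MLC against MG, saline), 1 to 2 (MLC against MG, seizure), 0 to 1 (MLC against NoTx, saline), 1 to 2 (MLC against NoTx, seizure), 0 to 1 (MG against NoTx, saline), 0 to 1 (seizure against saline, NoTx), 0 to 1 (MLC against NoTx, seizure minus saline) and 0 to 0 elsewhere; without 1 NoTx saline library, or the 2 NoTx seizure libraries with Xist, the lone one is assumed to vary like the other groups. The cause was not tested. Over all alternatives, all-gene calls were 502 to 2447 for MLC against MG after seizure (1109 in the main result), 181 to 1698 in saline mice (299), 354 to 2748 for MLC against NoTx after seizure (1162), 79 to 1551 in saline mice (237), 0 to 627 for MG against NoTx after seizure (14), 1 to 439 in saline mice (10), and 0 to 130, 0 to 274 and 0 to 218 for seizure against saline in MLC (0), MG (7) and NoTx (20). In MLC against MG after seizure, upstream genes called lower ranged from 0 to 5 (4), called higher from 0 to 2 (2), and handling genes called higher from 0 to 6 (3). In saline mice these ranged from 0 to 5 (0), 0 to 2 (1) and 0 to 4 (0), and against NoTx after seizure from 0 to 4 (3), 1 to 3 (1) and 0 to 4 (1). RLE scaling moved members' group means by -7.1% to 10.28%. The shallowest library held 6571262 counts.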
